A study of Mus musculus with 9 samples.

Results

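In the retinas analysed here, 46 transcripts without a functional name met set limits on their control level and on their fall in Tet tcKO. Each was lower in every Tet tcKO library than in any control library, as were others that missed the limits. They were chosen by their measured values from 55487 rows, of which 30623 carry a symbol made of Gm and digits or ending in Rik, the placeholders given to mouse transcripts that have no assigned function. A transcript was taken when all 6 control libraries held at least 1 CPM (reads of a gene scaled to a total of 1000000 reads on genes) and the highest Tet tcKO value was at most 2/3 of the lowest control value. Of 2344 unnamed transcripts at the control floor, 46 (1.96%) met the limit, 34 with a Gm symbol and 12 with a Rik symbol. Among 12629 named genes at the same floor, 166 (1.31%) met it. Differences of the 46 between Tet tcKO and either control were the basis of the choice, so they are given below as descriptions, and nothing is read from the counts of limma calls given for them.

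Libraries came from whole retinas of C57 BL/6J mice at P21, with 3 libraries per genotype and the retinas of 2 animals pooled in each. The Cre- group, labelled WT, came from breeders without Cre. The tHet group carried the Chx10::Cre-GFP transgene and 1 floxed copy of each gene (Tet1 loxp/+; Tet2 loxp/+; Tet3 loxp/+), and the Tet tcKO group carried the transgene and was loxp/loxp at Tet1, Tet2 and Tet3. Chx10::Cre-GFP acts in retinal progenitor cells and is mosaic, and Cre+ animals were in-crossed to limit this, so the breeding line cannot be told apart from the presence of Cre. The tHet group is therefore the control that shares the transgene with Tet tcKO.

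TET enzymes oxidise methylated cytosine, mostly at CG dinucleotides, which is a route to DNA demethylation. Long noncoding RNAs are transcripts without a long reading frame. Many lie opposite or beside protein-coding genes, and they are often restricted to a single tissue or cell type. In the mouse retina rods are the most numerous cells, and their identity depends on the transcription factors Nrl and Nr2e3, so a bulk library is weighted toward transcripts of rods. In bulk tissue, fewer cells of a type and less RNA per cell cannot be told apart.

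Libraries held 9627927 to 21108256 reads on genes, so that 1 read was worth 0.0474 to 0.104 CPM and 3 reads 0.142 to 0.312 CPM. Tet3 ranged from 99.2 to 152 CPM in Tet tcKO and from 155 to 288 CPM in the controls, whereas Tet1 and Tet2 overlapped between genotypes. These are values over whole genes, and reads of the floxed exons were not analysed here. The ribosomal RNA gene CT010467.1 took 28.7% of the reads of Tet tcKO replicate 3 and 3.72% of tHet replicate 3, against at most 0.226% elsewhere. Xist, the RNA of the inactive X chromosome, stood at 1.24 CPM in Cre- replicate 1, 2.42 CPM in tHet replicate 3 and 5.28 CPM in Tet tcKO replicate 1, and at 647 CPM or more in the other 6 libraries. Each genotype thus held a single library with low Xist. Of the rod markers, 10 of 12 were lower in Tet tcKO than in Cre-, and their summed level was 36074 to 42277 CPM in Cre-, 31990 to 39063 CPM in tHet and 4316 to 12703 CPM in Tet tcKO. Of the cone markers, 8 of 12 were higher (Opn1sw, Arr3, Gnat2, Gngt2, Cnga3, Cngb3, Gnb3 and Rxrg) and 1 was lower (Pde6h), with sums of 855 to 983 CPM in Cre-, 927 to 1126 CPM in tHet and 2105 to 3379 CPM in Tet tcKO. No rod or cone marker was at 0 in all libraries. The part of these cell type changes in the fall of the 46 transcripts was not tested.

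The start regions of 4 of the transcripts are shown so that their CG can be seen, since TET enzymes act mostly at methylated CG. They come from RefSeq on GRCm38.p6, the mm10 assembly, read 5′ to 3′ on the plus strand, with every CG in capitals. Gm20139, at chr10:19141499-19141798, had the largest fall of the 46. F630040K05Rik lies at chr17:45734256-45734555 and D030068K23Rik at chr8:109074972-109075271. Gm7616, at chr9:59951046-59951345, starts inside the rod gene Nr2e3. The last sequence, chr8:13200621-13200719, holds the 99 bases between the annotated starts of Grtp1, on the minus strand, and 2810030D12Rik, on the plus strand. It was chosen, like Gm7616, after the values of the neighbouring genes were seen.
Gm20139: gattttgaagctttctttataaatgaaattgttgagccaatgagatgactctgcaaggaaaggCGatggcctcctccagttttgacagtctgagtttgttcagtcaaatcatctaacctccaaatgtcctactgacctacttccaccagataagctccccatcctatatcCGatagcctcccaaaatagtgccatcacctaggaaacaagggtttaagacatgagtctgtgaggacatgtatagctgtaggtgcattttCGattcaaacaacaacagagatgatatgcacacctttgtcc
F630040K05Rik: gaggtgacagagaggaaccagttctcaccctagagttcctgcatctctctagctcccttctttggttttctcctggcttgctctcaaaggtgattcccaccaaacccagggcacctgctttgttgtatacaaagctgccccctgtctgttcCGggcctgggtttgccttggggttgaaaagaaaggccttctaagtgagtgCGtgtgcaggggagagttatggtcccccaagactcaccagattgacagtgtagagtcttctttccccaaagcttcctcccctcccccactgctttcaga
D030068K23Rik: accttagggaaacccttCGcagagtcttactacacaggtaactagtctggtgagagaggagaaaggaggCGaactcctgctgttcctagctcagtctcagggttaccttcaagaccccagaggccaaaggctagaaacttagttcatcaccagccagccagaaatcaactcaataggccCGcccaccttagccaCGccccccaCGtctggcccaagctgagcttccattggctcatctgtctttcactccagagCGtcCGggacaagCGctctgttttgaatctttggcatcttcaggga
Gm7616: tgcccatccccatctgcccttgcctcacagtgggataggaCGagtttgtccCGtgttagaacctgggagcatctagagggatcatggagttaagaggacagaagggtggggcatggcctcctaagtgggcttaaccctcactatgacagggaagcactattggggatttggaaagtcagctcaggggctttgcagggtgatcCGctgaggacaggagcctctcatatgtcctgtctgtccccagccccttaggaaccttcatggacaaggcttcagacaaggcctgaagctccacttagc
2810030D12Rik: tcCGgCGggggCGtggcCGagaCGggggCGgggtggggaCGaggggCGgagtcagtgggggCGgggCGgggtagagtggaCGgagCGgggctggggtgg

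These sequences differed in CG content. The 300 bases at Gm20139 held 3 CG, those at F630040K05Rik 2, at D030068K23Rik 8 and at Gm7616 3, whereas the 99 bases shared with Grtp1 held 12. RefSeq start regions (250 bases before to 50 bases after the start) were found for 18 of the 46 transcripts, with a median of 4.5 CG, against 12 for 601 other unnamed transcripts at the control floor and 7 for 27025 genes. Some RefSeq starts lay away from the GENCODE start, by 1177 bases for Gm15983, 4405 for Gm30198 and more for Gm14268 and Gm11342. Such regions may not be the start of the transcript measured. Letter patterns were counted on both strands, each a core that retinal factors are known to bind. TAATCC, the core bound by Crx and Otx2, was in 1 of 18 regions (5.56%), against 7.16% of all regions. TGCTGA, part of the site of Nrl, was in 3 (16.7%), against 19.1%. AGGTCA, a core bound by many nuclear receptors, was in 4 (22.2%), against 16.04%, and 1 of these was Gm20139. At this number of regions a single region is worth 5.56%, and the differences were not tested. A match is a run of letters and does not show binding.

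GENCODE release M21 held a gene model for 45 of the 46, spread over 18 chromosomes, and the remaining 1, Gm50481, had no entry there. Intergenic long noncoding RNAs (lincRNA) made up 20 of the 45 (44.4%), against 10.9% of 2295 other annotated unnamed transcripts at the control floor. Antisense RNAs made up 10 (22.2%), against 15.3%. TEC models, which are unspliced candidates still to be tested experimentally, made up 6 (13.3%), against 36.2%. Only 2 were annotated as protein-coding (Gm10097 and Gm45716), and 3 were pseudogenes (Gm16481, Gm47647 and Gm7546). Reads of a pseudogene can also come from its parent gene, and how multiply placed reads were handled is not given in the sources used here. The median exonic length was 1246 bases, against 2340 bases for the other unnamed transcripts, and 11 had a single exon block.

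**Figure D1:**
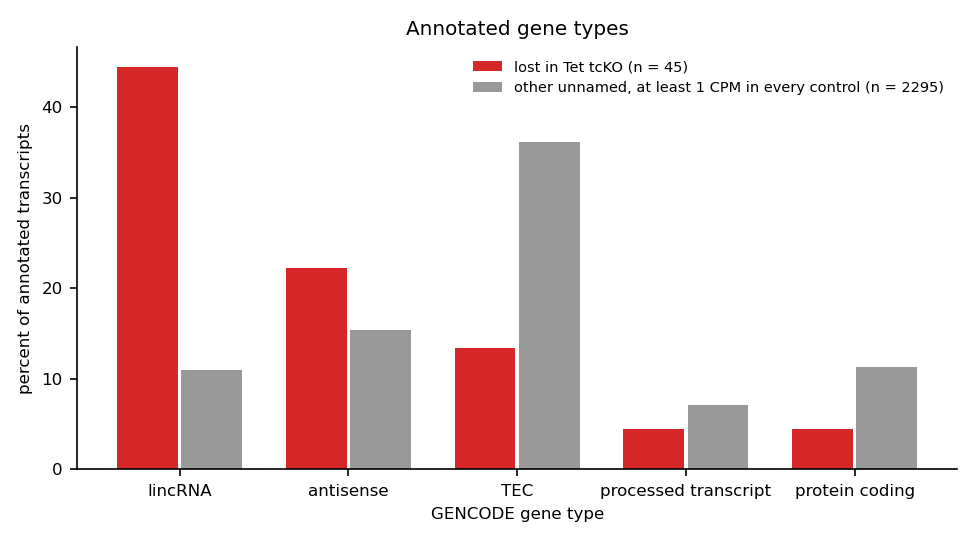
Percent of annotated unnamed transcripts (y axis) of each of 5 GENCODE gene types (x axis), for the 45 annotated transcripts lost in Tet tcKO (red) and 2295 other unnamed transcripts at the control floor (grey). The red bar is the taller for lincRNA (44.4% against 10.9%) and antisense RNA (22.2% against 15.3%), and the shorter for TEC (13.3% against 36.2%).

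Most of the 46 were transcripts of low abundance. Control means ranged from 1.34 to 60.1 CPM with a median of 5.17 CPM, and 15 reached 10 CPM. A control library held 15 to 1069 reads of each, with a median of 76, and a Tet tcKO library held 0 to 471, with a median of 14. Gm43866 and Gm33056 had no read in Tet tcKO replicate 1, where 3 reads would be 0.178 CPM. The level left in Tet tcKO was 8.79 to 50.03% of the control mean, with a median of 17.4%. It was under 20% for 28 transcripts, between 20 and 40% for 16 and at or above 40% for 2. Scaled to exonic length, control means ran from 0.368 to 47.8 CPM per kb.

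**Figure D2:**
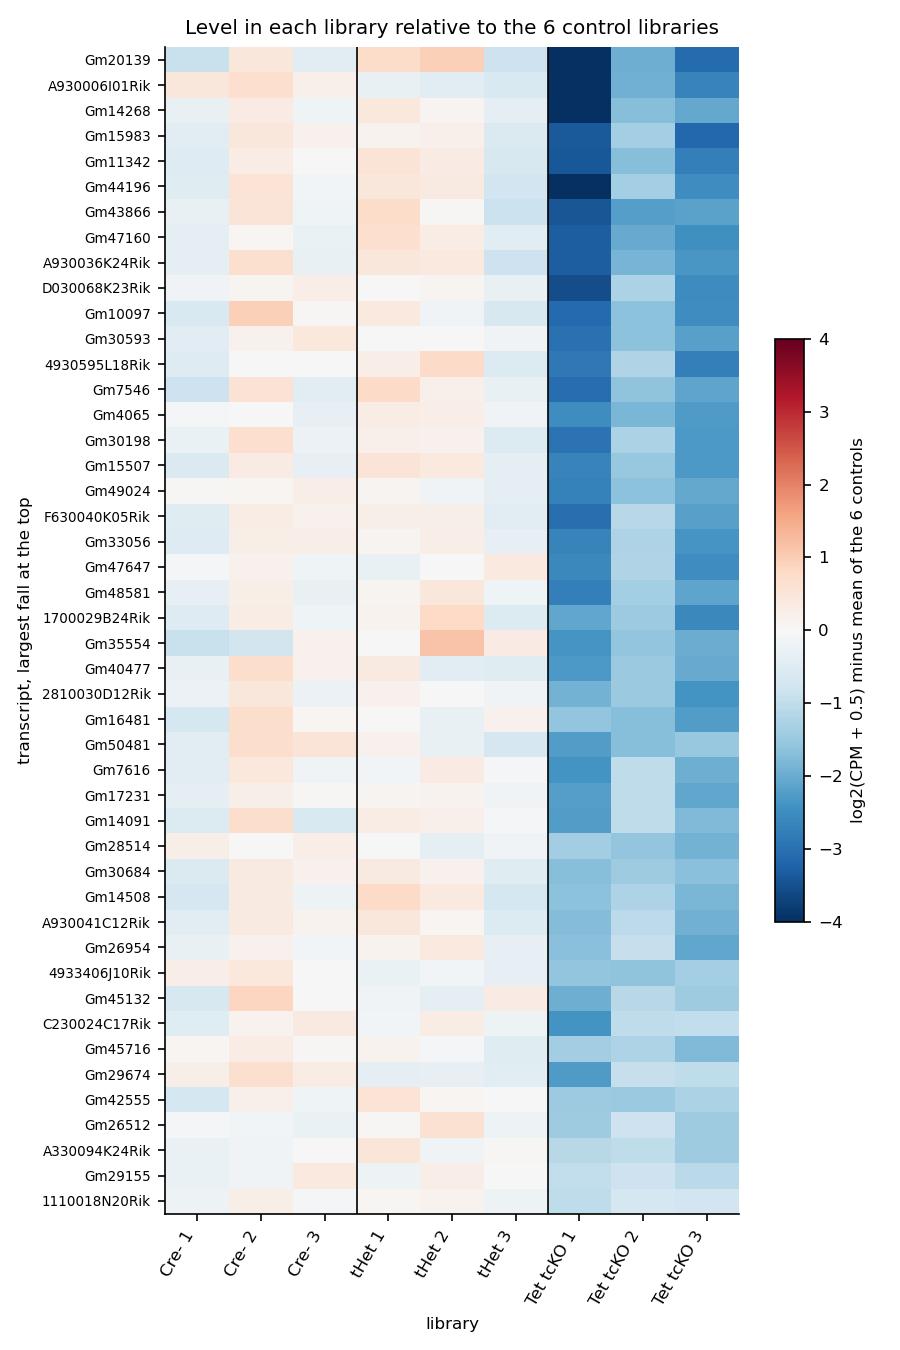
Level of each of the 46 transcripts (rows, largest fall at the top) in each of 9 libraries (columns), as log2(CPM + 0.5) minus the mean of the 6 control libraries. Blue is lower and red higher, with the colour held at 4 log2 units either way. The 3 Tet tcKO columns are blue in every row, and replicate 1 is darkest in most rows.

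The most abundant of the 46 was Gm26954, an antisense RNA of 1258 exonic bases at chr5:14696985-14723664 on the minus strand, opposite Pclo, which encodes a scaffold of the presynaptic active zone. It was measured at 48.5, 66.5 and 54.9 CPM in Cre-, at 65.2, 78.4 and 47.0 CPM in tHet and at 18.1, 31.0 and 13.5 CPM in Tet tcKO. It lay just inside the limit of the rule, with a highest Tet tcKO value at 0.660 of the lowest control value, and was the highest per kb in the controls, at 47.8 CPM per kb. Gm11342, an antisense RNA opposite Cmah at chr13:24335937-24414803, stood at 35.9, 63.9 and 51.6 CPM in Cre-, 76.5, 65.1 and 32.7 CPM in tHet and 4.51, 15.4 and 7.29 CPM in Tet tcKO. Its Tet tcKO mean was 9.07 ± 5.67 CPM (SD, n = 3), which is 16.7% of the control mean.

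Gm20139 is a spliced lincRNA of 5599 exonic bases (ENSMUSG00000111052.1, chr10:19141751-19206702, plus strand), and it fell furthest. It was measured at 23.6, 60.6 and 33.2 CPM in Cre- and at 73.5, 86.3 and 24.7 CPM in tHet. In Tet tcKO it stood at 0.297, 11.1 and 4.76 CPM, so that the 3 libraries of this genotype were themselves far apart. The difference of mean log2(CPM + 0.5) from the 6 controls was -3.62. Gm33056, another lincRNA further along the same strand at chr10:19290989-19325817, was measured at 1.77, 3.24 and 3.38 CPM in Cre-, 2.95, 3.32 and 2.04 CPM in tHet and 0, 0.857 and 0.120 CPM in Tet tcKO.

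Of the transcripts next in abundance, Gm47160, a TEC model on chromosome 9, stood at 35.7 to 76.98 CPM in the controls and at 4.45, 11.6 and 8.25 CPM in Tet tcKO. Gm45716, a protein-coding model on chromosome 11, stood at 30.9 to 54.3 CPM in the controls and at 16.3, 18.3 and 12.6 CPM in Tet tcKO. Its Tet tcKO libraries lay close together. A330094K24Rik, a lincRNA on chromosome 18, kept 43.2% of its control mean. The lincRNA F630040K05Rik on chromosome 17 stood at 17.5 to 30.9 CPM in the controls and at 2.61, 11.3 and 5.12 CPM in Tet tcKO. Gm15983, antisense to Eef2kmt on chromosome 16, stood at 12.5 to 25.8 CPM and at 1.37, 6.92 and 1.69 CPM. For each of these 5, all Tet tcKO values were below all control values, as the rule required.

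**Figure D3:**
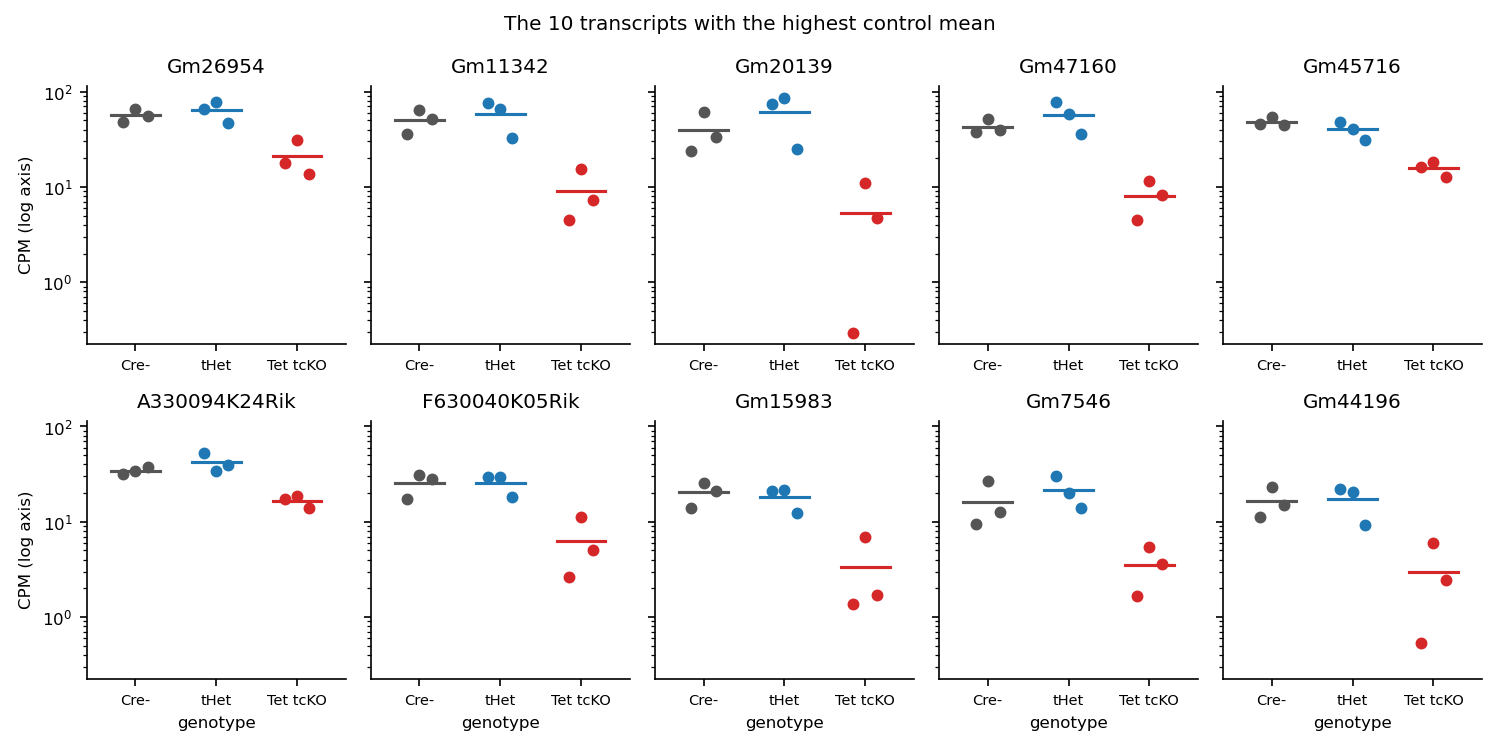
CPM (y axis, log scale) of the 10 transcripts with the highest control mean in Cre-, tHet and Tet tcKO (x axis), with a point for each library and a bar at the mean of 3. Points of Tet tcKO lie below all control points in each panel, and those of Gm20139 reach from 0.297 to 11.1 CPM.

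Apart from Gm20139, the largest falls were those of A930006I01Rik and Gm14268, both spliced lincRNAs on chromosome 2. A930006I01Rik was measured at 20.3, 23.99 and 17.3 CPM in Cre-, at 12.1, 10.9 and 9.52 CPM in tHet and at 0.416, 3.56 and 1.93 CPM in Tet tcKO, a log2 difference of -2.88 from the 6 controls. Gm14268 stood at 10.4 to 18.6 CPM in the controls and at 0.178, 3.89 and 2.95 CPM in Tet tcKO, a log2 difference of -2.70. Gm43866, a single-block TEC model of 839 bases, was measured at 3.89, 7.25 and 4.32 CPM in Cre-, 8.43, 5.09 and 2.46 CPM in tHet and 0, 0.659 and 0.723 CPM in Tet tcKO, and kept 8.79% of its control mean, the lowest share of the 46. Gm44196 and 4930595L18Rik are lincRNAs that overlap on the minus strand of chromosome 6, so they may share reads. Gm44196 kept 17.6% of its control mean and 4930595L18Rik 13.7%. Gm7546, a transcribed pseudogene on chromosome 7, kept 18.9%, and D030068K23Rik, a lincRNA with 13 exon blocks on chromosome 8, kept 16.1%. The smallest falls were those of 1110018N20Rik, which kept 50.03% of its control mean with a log2 difference of -0.83, and Gm29155, with a log2 difference of -0.96.

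At the edge of the rule, the highest Tet tcKO value was 0.658 of the lowest control value for 1110018N20Rik and 0.651 for Gm14091. Just outside stood A930014D07Rik (0.672), Gm14505 (0.685) and Gm48236 (0.695). A930014D07Rik was measured at 2.65 to 10.6 CPM in the controls and at 0, 1.78 and 0.662 CPM in Tet tcKO, a level left of 13.5%. The limit thus separates by the extreme libraries and not by the mean change. Without Tet tcKO replicate 2, 135 unnamed transcripts met the rule, and without Cre- replicate 1, 85 did.

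Genes were tested by limma on log2(CPM + 0.5) over 21330 genes, and a call required a Benjamini-Hochberg adjusted p under 0.01 together with a log2 fold change of 1 or more in size. All 46 were among the genes tested. In Tet tcKO versus Cre-, 37 of the 46 were called lower, where 1.57% of all genes tested were, and in Tet tcKO versus tHet 37 were called lower, where 1.61% of all genes were. Without Tet tcKO replicate 3 the counts were 9 and 5, without Tet tcKO replicate 1 they were 19 and 21, and without tHet replicate 1 the second was 23. The rule used both contrasts and both share the Tet tcKO libraries, so nothing is read from these counts. Log2 fold changes ran from -3.33 to -0.82 against Cre- with a median of -1.95, and the median against tHet was -2.05. The medians of all genes tested were 0.00 and -0.06. With CT010467.1 left out of the library totals, a choice made after seeing the data, the median of all genes rose by 0.14 against Cre- and by 0.13 against tHet, and that of the 46 against Cre- was -1.87. The split of all called genes moved with it, from 334 lower and 434 higher to 222 lower and 613 higher against Cre-, and from 343 lower and 297 higher to 215 lower and 427 higher against tHet. Of the other 6317 unnamed transcripts tested, 18 were called lower and 107 higher in Tet tcKO versus Cre-, with a median of -0.02. In Tet tcKO versus tHet, 36 of them were called lower and 60 higher, with a median of -0.27. The count of 18 was 0 without Tet tcKO replicate 1 or 3, 51 without Tet tcKO replicate 2, 68, 10 and 2 without Cre- replicate 1, 2 and 3, and 57 without tHet replicate 3.

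The rule did not compare tHet with Cre-, but it acted on the lowest of the 6 control libraries. A transcript that was low in either group was therefore less likely to be taken. The calls in tHet versus Cre- are thus given as descriptions, and nothing is read from their absence. These genotypes differ by the loss of a single copy of each Tet gene and also by the transgene and the breeding line, which cannot be told apart here. None of the 46 was called in either direction by limma, edgeR or DESeq2, where 0.0422% of all genes tested were called by limma. An unadjusted p under 0.05 was found in limma for 3 of the 46 and for 970 of all 21330 genes tested, and the smallest adjusted p of the 46 was 1.00. The median log2 fold change of the 46 was 0.02, against 0.06 for all genes tested, with 27 above 0 and 19 below. The other 6317 unnamed transcripts tested stood higher in tHet, with a median of 0.27 and 1449 below 0. Gm35554, a processed transcript beside the photoreceptor potassium channel gene Kcnv2, was measured at 2.24, 2.54 and 5.20 CPM in Cre- and at 4.46, 10.6 and 5.83 CPM in tHet, a log2 fold change of 0.96 ± 0.38 (SE, limma). A930006I01Rik, whose values are given above, had a log2 fold change of -0.88 ± 0.39. Gm29674, a lincRNA on chromosome 10, was measured at 2.65, 3.69 and 2.84 CPM in Cre- and 1.58, 1.66 and 1.47 CPM in tHet, a log2 fold change of -0.77 ± 0.37. These are the 3 with an unadjusted p under 0.05, so their values are shown as descriptions. Standard errors of the 46 in this contrast ran from 0.23 to 0.63, which limits the differences that 3 libraries per group can show.

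Many of the transcripts lie in or beside named genes, and the level of those genes was not part of the rule. For each of the 45 annotated transcripts, the named genes whose body it overlaps were taken, or the nearest named gene where there was none, considering genes tested. This gave 45 different genes, 20 by overlap and 25 by distance, the latter 100 to 505665 bases away. In Tet tcKO versus Cre-, 9 of the 45 were called lower and none higher, where 1.57% of all genes tested were called lower. Of the 9, 7 are described here, namely Nr2e3, Grtp1, Tnfaip3, Fabp12, Rgs16, Prkab1 and Fbxl5. The median log2 fold change of all 45 neighbours was -0.48, against 0.00 for all genes tested, and 31 of 45 were below 0. All Tet tcKO libraries were below all control libraries for 15 of the 45 (33.3%), where this held for 4.82% of all genes tested. Neighbours were called lower among 5 of 20 overlapping and 4 of 25 nearest genes. Without Tet tcKO replicate 3 the count was 5 of 45, edgeR on the recovered reads gave 8 and DESeq2 gave 11. In Tet tcKO versus tHet, 10 of the 45 were called lower and none higher, where 1.61% of all genes tested were called lower. The neighbours were reached through transcripts that fell, and where models overlap the same reads could serve both, so no chance level is given. The strand setting of the counting is not given in the sources used here, so reads of overlapping models cannot be told apart.

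At Nr2e3, which encodes a nuclear receptor that represses cone genes in rods, 2 of the 46 were found. Gm15507, a lincRNA at chr9:59957511-59961801 on the strand of Nr2e3, shares 61 exonic bases with it, and was measured at 2.12, 4.39 and 2.63 CPM in Cre-, 5.11, 4.67 and 2.56 CPM in tHet and 0.119, 0.857 and 0.301 CPM in Tet tcKO. Gm7616, on the opposite strand, shares no exonic base with Nr2e3 and stood at 2.83 to 5.54 CPM in the controls and at 0.356, 1.71 and 0.662 CPM in Tet tcKO. Nr2e3 itself stood at 215, 322 and 277 CPM in Cre-, 377, 355 and 383 CPM in tHet and 36.5, 85.7 and 60.9 CPM in Tet tcKO. It fell with a log2 fold change of -2.21 ± 0.26 versus Cre- (limma, adjusted p = 1.44e-05). For the gene and both transcripts, Tet tcKO replicate 1 was the lowest library and replicate 2 the highest of their genotype.

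Grtp1, a gene for a TBC domain protein, starts 100 bases from 2810030D12Rik, and the 2 are transcribed away from each other from the CG-rich stretch shown above. 2810030D12Rik was measured at 2.53, 4.45 and 2.57 CPM in Cre-, 3.53, 3.01 and 2.75 CPM in tHet and 0.475, 0.791 and 0.181 CPM in Tet tcKO. Grtp1 stood at 65.6, 92.3 and 71.5 CPM in Cre-, 85.7, 81.2 and 59.5 CPM in tHet and 9.14, 25.8 and 14.3 CPM in Tet tcKO, a log2 fold change of -2.29 ± 0.29 versus Cre- (limma, adjusted p = 2.60e-05). Both kept a similar share of the control mean, 15.4% for 2810030D12Rik and 21.6% for Grtp1. Their exons do not overlap.

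Fabp12, a member of the fatty acid binding protein family, lies 1901 bases from 1700029B24Rik. It stood at 96.5 to 178 CPM in the controls and at 25.5, 47.6 and 25.8 CPM in Tet tcKO, with a log2 fold change of -2.09 ± 0.27 versus Cre- (limma, adjusted p = 3.75e-05). 1700029B24Rik stood at 4.69 to 12.9 CPM and at 1.31, 2.31 and 0.783 CPM. Tnfaip3, a regulator of NF-kappaB signalling, is the nearest named gene tested to Gm20139, 126094 bases away, and stood at 122 to 320 CPM in the controls and 36.04, 78.0 and 43.7 CPM in Tet tcKO. Its log2 fold change versus Cre- was -2.15 ± 0.29 (limma, adjusted p = 6.43e-05). Rgs16, a regulator of G protein signalling 2520 bases from C230024C17Rik, stood at 20.9 to 36.3 CPM in the controls and at 3.62, 16.5 and 8.01 CPM in Tet tcKO (log2 fold change -1.87 ± 0.36, limma, adjusted p = 0.00229). Rgs16 was not called by edgeR (-1.74), without Cre- replicate 3 (-1.78), without Tet tcKO replicate 1 (-1.35) or without Tet tcKO replicate 3 (-1.88).

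Prkab1, a subunit gene of AMP-activated protein kinase that Gm14508 overlaps on the opposite strand, had a log2 fold change of -1.25 ± 0.24 (limma, adjusted p = 0.00179), and missed the threshold without Cre- replicate 3 (-1.26) or Tet tcKO replicate 3 (-1.04). Fbxl5, a ubiquitin ligase subunit gene that senses iron, contains Gm42555 on the same strand, and its log2 fold change of -1.01 ± 0.23 (limma, adjusted p = 0.00725) was close to the limit of a call. It was not called when any Cre- library, tHet replicate 1 or Tet tcKO replicate 1 or 3 was left out (-1.07 to -0.83). Versus tHet, Fbxl5 was not called, with a log2 fold change of -0.85 ± 0.23 (limma, adjusted p = 0.0282). Gnat1, the alpha subunit gene of rod transducin, is not the nearest gene of any of the 46 but lies 370 bases from A930036K24Rik, and it was chosen after its values were seen. The gene nearest to A930036K24Rik is Sema3f, 219 bases away. Sema3f was not called, with a log2 fold change of -0.48 ± 0.24 versus Cre- (limma, adjusted p = 0.348). Gnat1 stood at 4823 to 6853 CPM in the controls and at 258, 1543 and 659 CPM in Tet tcKO, and A930036K24Rik at 4.93 to 14.7 CPM and at 0.475, 2.17 and 1.45 CPM.

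Other neighbours were not called in Tet tcKO versus Cre-, some at values near 0 and some below. Pclo, opposite the most abundant of the 46 with 496 shared exonic bases, was measured at 461, 765 and 646 CPM in Cre-, 744, 727 and 602 CPM in tHet and 656, 867 and 479 CPM in Tet tcKO. Its genotypes overlapped, with a log2 fold change versus Cre- of 0.09 ± 0.27 (limma, adjusted p = 0.956), and the sign of this value changed under some alternatives. Eef2kmt shares 143 exonic bases with Gm15983 and had a log2 fold change of 0.05 ± 0.27, while Gm15983 was at -2.69. Efl1, opposite 4933406J10Rik, was at 0.13 ± 0.23, Rpap2, opposite A930041C12Rik, at -0.08 ± 0.23, and Golga5, 1526 bases from Gm30198, at 0.02 ± 0.22. Arid3b, with 360 exonic bases shared with Gm17231, was at 0.65 ± 0.32. Cmah, opposite Gm11342, was at -1.10 ± 0.40 (limma, adjusted p = 0.131), and BC046251, which shares 124 exonic bases with Gm7546, at -2.03 ± 0.55 (limma, adjusted p = 0.0281), a value close to that of Gm7546. BC046251 was called with the replicate block, with only the 6 libraries compared, with only the high-Xist libraries (-1.87) and without Cre- replicate 1 (-2.55), tHet replicate 3 (-2.03) or Tet tcKO replicate 2 (-2.67). Mmd overlaps Gm45716 on the same strand, with 280 shared exonic bases, and was at -0.79 ± 0.22. Cadm1, 55255 bases from Gm47160, was at -0.48 ± 0.24, and Prex1, 168155 bases from Gm14268, at 0.97 ± 0.28. Ehf, 35323 bases from A930006I01Rik, was at -0.93 ± 0.34. None of these was called, although every Tet tcKO library was below every control library for Mmd and Cadm1. Foxp1, the nearest named gene of both Gm44196 and 4930595L18Rik, was at 0.16 ± 0.24. Among the neighbours named here, sharing exonic bases went with a called gene (Nr2e3) and with genes not called in the main fit versus Cre-. The latter were Pclo, Eef2kmt, Arid3b, Mmd, BC046251, Dio2, Knstrn and Ptgis. Not every called neighbour is described here, so no tally is read from this. Versus tHet, BC046251 (-2.47 ± 0.55, limma, adjusted p = 0.00786) and Dio2 (-1.31 ± 0.25, limma, adjusted p = 0.00256) were called lower.

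**Figure D4:**
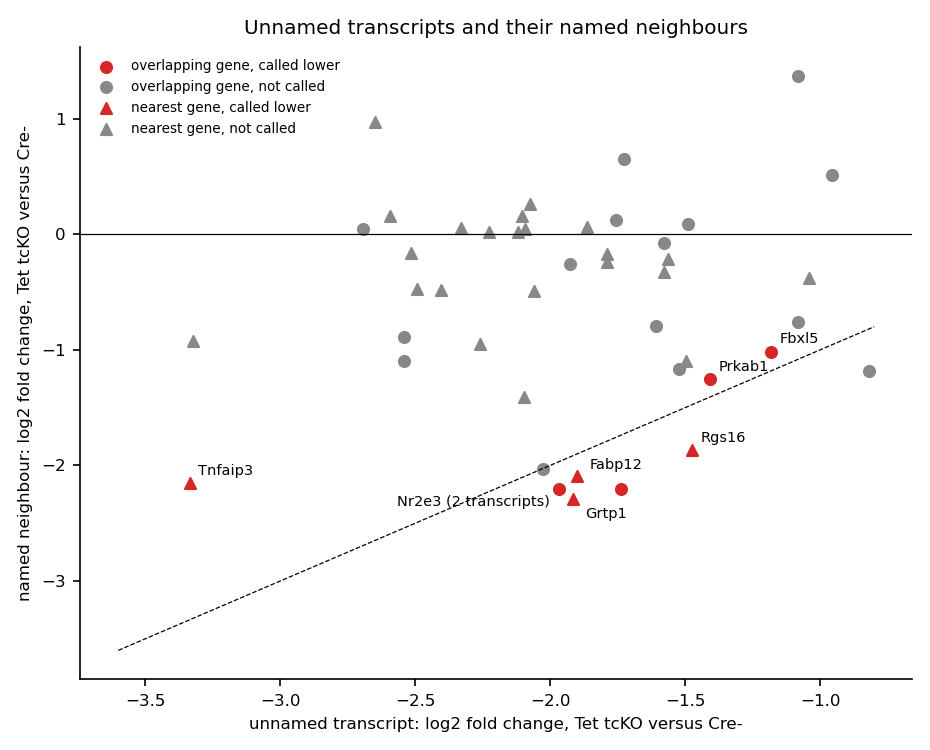
Log2 fold change in Tet tcKO versus Cre- of the plotted unnamed transcripts (x axis) and of their named neighbours (y axis), with circles for overlapping and triangles for nearest genes, red where the neighbour was called lower and grey where it was not. The dashed line marks equal change. The 7 named genes called lower that are shown lie between -1.01 and -2.29, and many grey points lie near 0.

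The rule did not name any library, but it acted on the highest Tet tcKO value and the lowest control value of each transcript. The order of the libraries within a genotype thus bears on the choice, and the shares of the 46 are descriptions. In Tet tcKO, replicate 2 was the highest library for 39 of the 46 (84.8%), against 81.0% of 2298 other unnamed transcripts at the control floor and 55.6% of all genes tested. Replicate 1 was the lowest for 34 (73.9%), against 50.4% of the other unnamed transcripts and 24.5% of all genes, and for 10 of 12 rod markers. CT010467.1 lowers the CPM of every other gene in replicate 3. With it left out, replicate 1 was the lowest for 40 of the 46 (87.0%), against 74.5% and 44.9%, and replicate 2 was the highest for 34 (73.9%), against 62.4% and 41.4%. The median log2 difference from the mean of the controls was -2.40 in replicate 1, -1.39 in replicate 2 and -2.09 in replicate 3 for the 46, and -3.19, -1.77 and -2.40 for the rod markers. The other unnamed transcripts stood at -0.42, 0.19 and -0.42. The 166 named genes that met the same limits stood at -1.96, -1.26 and -1.91. Of these, replicate 2 was the highest for 91.0%, and replicate 1 the lowest for 59.6%, or 85.5% with CT010467.1 left out. By median, the 46, the rod markers and these named genes were thus all lowest in replicate 1 and highest in replicate 2, so this order is not particular to the 46. Only 3 libraries were compared, and what sets their order was not tested.

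In the controls, Cre- replicate 1 was the lowest Cre- library for 38 of the 46 (82.6%), and tHet replicate 3 was the lowest tHet library for 38. The other unnamed transcripts showed nearly the same shares, 80.4% and 80.0%, whereas the rod markers did not, with Cre- replicate 1 lowest for 3 of 12 and tHet replicate 3 for 6 of 12. The shares were 54.9% and 58.2% of all genes tested, and 41.6% and 64.5% of the 166 named genes that met the same limits. Cre- replicate 1 and tHet replicate 3 are the control libraries with low Xist. Within the low-Xist libraries, 1 per genotype, the median difference of the 46 in log2(CPM + 0.5) was -2.04 between Tet tcKO and Cre- and -2.32 between Tet tcKO and tHet. Within the other 6, 2 per genotype, it was -1.89 and -1.90. Over all libraries it was -1.95 and -2.05. The rule placed every Tet tcKO value below every control value, so the sign was fixed in any split of the libraries. The split by Xist was also chosen after seeing the data, and nothing is read from these values.

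**Figure D5:**
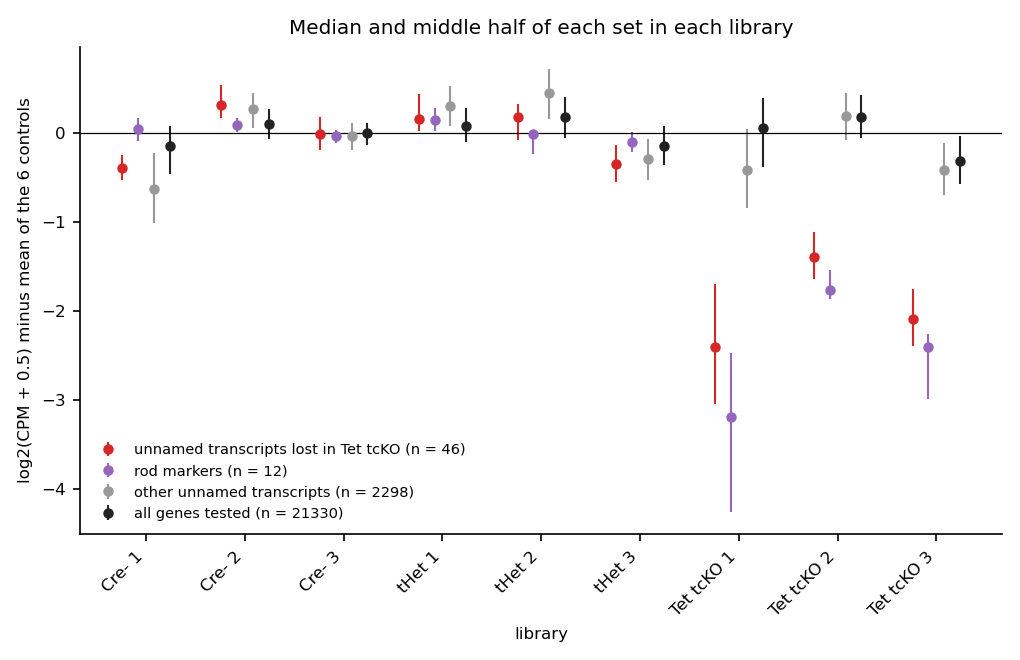
Median (point) and middle 50% (line) of log2(CPM + 0.5) minus the mean of the 6 controls (y axis) in each library (x axis), for the 46 transcripts (red), 12 rod markers (purple), 2298 other unnamed transcripts at the control floor (grey) and all 21330 genes tested (black). In Tet tcKO the red points stand at -1.39 in replicate 2 and -2.40 in replicate 1, and the rule required them to be low. The purple points stand at -1.77 and -3.19 in these libraries, and the grey points between -0.42 and 0.19. The 166 named genes that met the same limits are not drawn.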

How the data were processed

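Bulk RNA-seq libraries were made by the authors from rRNA-depleted total RNA with a stranded kit. Per the labels and methods, reads were trimmed (Trim Galore 0.6.7), aligned to mm10 (STAR 2.7.0f) and counted on genes (HTSeq 0.11.2). The annotation release and the strand setting of counting are not given in the sources used here. The authors deposited CPM per gene and library, and columns of fold changes and p-values of their own comparisons, which were not used. At least 99.997% of CPM values were whole multiples of 1 read within 0.01, which gave the reads per library; intervals from depth cover counting error only.

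Genes reaching 0.5 CPM in 3 or more of the 9 libraries (21330) were fitted with limma 3.58.1 in R 4.3.3 on log2(CPM + 0.5), all 9 libraries in 1 fit with an intensity trend and 1 mean per genotype, after a test on simulated data. Fold changes are on that scale, which understates the change of low genes. P-values set a difference of means against the spread between libraries, each a pool of 2 animals, and not between single animals. No pair of replicates agreed within sampling noise. Alternatives were other pseudocounts, filters and scalings, edgeR 4.0.16 and DESeq2 1.42.0 on recovered reads, a replicate block, and leaving out libraries. Positions come from GENCODE M21, matched by gene ID.

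The 46 members and all lists were chosen with earlier results of these data known. Named were the 10 highest control means, the 10 largest falls, the 3 nearest the limit on either side, members that share exons with named genes, and their neighbours. Correlations with named genes were not reported, since the genotypes form separate clusters. Marker lists of 12 retinal and other cell types were counted; those not given in the report had 0 to 3 genes lower and 0 or 1 higher in Tet tcKO versus Cre-. Some neighbouring genes are not reported here.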

Additional observations from a re-analysis of the deposited data

How the results depend on the processing

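With no filter on low values, 18 of the 46 transcripts were called lower versus Cre- and 23 versus tHet, instead of 37 and 37, and 1 other unnamed transcript instead of 18; more genes are then tested and adjusted for. Leaving out 1 library gave 9 to 43 of the 46 lower versus Cre- and 5 to 42 versus tHet, with the lowest counts without Tet tcKO replicate 3, then without Tet tcKO replicate 1 (19 and 21), and 23 versus tHet without tHet replicate 1. It gave 5 to 11 of the 45 neighbours (9 with all libraries) and 0 to 68 other unnamed transcripts. The last count was 11 by edgeR, 67 by DESeq2, 61 with only the 6 libraries compared, 2 without CT010467.1 and 77 with only the 6 high-Xist libraries (both chosen after seeing the data). The cause was not tested. With a limit of 0.5, 23 transcripts met the rule. Leaving out 1 library gave 46 to 135, with 85 without Cre- replicate 1 and 135 without Tet tcKO replicate 2. All 46 were kept each time a library was left out, since fewer libraries have to pass. With TMM scaling 58 met the rule and 42 of the 46 were kept, and with upper-quartile scaling 69 met it and 44 were kept. With CT010467.1 left out of the library totals, 42 of the 46 met the rule. On that scale 27 of the 46 were called lower versus Cre- and 28 versus tHet. No call of the 46 in tHet versus Cre- appeared under any alternative run. Some neighbours near 0 changed sign. Eef2kmt ranged from -0.069 to 0.25, Mrpl14 from -0.041 to 0.14, Zfhx3 from -0.40 to 0.20 and Pclo from -0.12 to 0.30 when single libraries were left out, and Eef2kmt was -0.11, Mrpl14 -0.061 and Pclo -0.13 in the high-Xist libraries. Same-numbered libraries share only a number (correlations of deviations -0.35 to 0.56, not each highest with its own number). With the replicate block, 43 of the 46 were lower versus each control, 12 neighbours and 88 other unnamed transcripts. Of the called neighbours described, Rgs16 missed the threshold under 8 alternatives, Fbxl5 under 9 and Prkab1 under 2. Low read numbers in Tet tcKO limit the fold changes. That of Gm43866 versus Cre- was -2.62 with a pseudocount of 0.5 CPM and -3.67 with 0.1.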
